A study of Mus musculus with 10 samples.

Results

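The histone genes and testis histone variants are the genes whose symbols begin with Hist1h to Hist4h, H2af, H3f3 or H1f. Of 82 such rows, 4 were listed at 0 in every library (Hist1h2ah, Hist1h2br, Hist2h2ab and H2afb2), which left 78 of the 21969 genes measured. They were followed in cultured spermatogonial stem cells, which renew themselves and feed sperm production, from DBA/2 mice. The groups were week 0 (cells of the adult testis sorted magnetically with an antibody to the membrane protein CD9), weeks 1, 2 and 3 of culture, and GS cells, which are established long-term cultures of such stem cells. Per the labels, the culture medium was based on Iscove's medium with human FGF2, rat GDNF and fetal bovine serum. Each group had 2 libraries, 10 in all, made from poly(A) RNA. The labels do not say whether the 2 libraries of a group stem from different mice or dishes, and p-values therefore reflect a library-to-library spread that could be purely technical.

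Histones package DNA into nucleosomes. The core proteins H2A, H2B, H3 and H4 form the particle, and linker histone H1 binds the DNA that enters and leaves it. Most of the protein is made in S phase from clustered replication-dependent genes, whose mRNAs typically end in a hairpin bound by SLBP, the stem-loop binding protein, and carry no poly(A) tail. Replication-independent variants such as H2A.Z and H3.3 are made throughout the cell cycle from polyadenylated mRNAs. Germ cells add testis variants in meiosis and after it, and in spermatids most histones give way to transition proteins and protamines. Poly(A) selection is therefore known to recover the variants well and the hairpin-ended mRNAs poorly.

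The members fell into 61 replication-dependent genes, 10 replication-independent variants and 7 testis or germ line variants. By protein, the replication-dependent genes were 5 H1, 15 H2A, 16 H2B, 12 H3 and 13 H4 genes. Chromosome 13 carried 53 of the 78 members and chromosome 3 another 10. Levels are FPKM, fragments per kilobase of transcript and per M (1e6) mapped fragments, as normalized by the authors. The 10 variants summed to between 1469 and 2350 FPKM per library, the 61 replication-dependent genes to between 48.0 and 191 FPKM. A gene entered the tests when it had an FPKM of 1 or more in at least 2 libraries, and 42 members did: 26 replication-dependent genes, all 10 variants and 6 of the 7 testis genes. A member that is high in a single group can pass this filter through that group alone, so counts of calls among the 42 are descriptive. Fold changes were estimated with limma from log2(FPKM + 1) values and called at a Benjamini-Hochberg adjusted p under 0.05 over all 15671 genes tested. Consecutive comparisons share a group, so a change into a group and the change out of it are not independent.

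Depth read from the steps of the low values was 10.34 to 20.45 M reads per library, and at FPKM 1 a transcript of 450 nucleotides then had 2.59 to 5.11 reads. Replicates correlated at r = 0.987 to 0.993 across genes. The sum of all FPKM values was 848311 to 860429 at week 0, 707638 to 727209 at week 1 and 579697 to 624747 in the other groups. Markers of undifferentiated spermatogonia (14 genes) summed to 1059 to 1087 FPKM in GS cells, against 120 to 129 FPKM at week 0. At week 0 the CD9-selected cells also held markers of spermatids (14 genes, 30160 to 31620 FPKM), spermatocytes (10 genes, 1642 to 1788 FPKM), Leydig cells (6 genes, 1511 to 1753 FPKM) and Sertoli cells (8 genes, 500.4 to 504 FPKM).

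The testis variants were mostly lost from the libraries once the cells were in culture. H1fnt, the spermatid linker histone needed for sperm chromatin condensation, was measured at 307 and 340 FPKM in the week 0 libraries, 0.162 and 0.737 FPKM in those of week 1, 0 and 0 in those of week 2, 0.0621 and 0.0479 FPKM in those of week 3, and 0 and 0 in GS cells. Both week 0 libraries stood far above the other 8. Against week 0, H1fnt fell by 7.83 on the log2 scale at week 1 (SE 0.18, limma adjusted p = 2.96e-09), and GS cells, listed at 0, also passed the test against week 0 (adjusted p = 2.07e-09). At week 0 H1fnt alone made up most of the testis variants' sum of 333 and 366 FPKM. In the 8 later libraries that sum was between 0.484 and 7.64 FPKM, of which H1fnt held at most 0.737 FPKM.

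**Figure D1:**
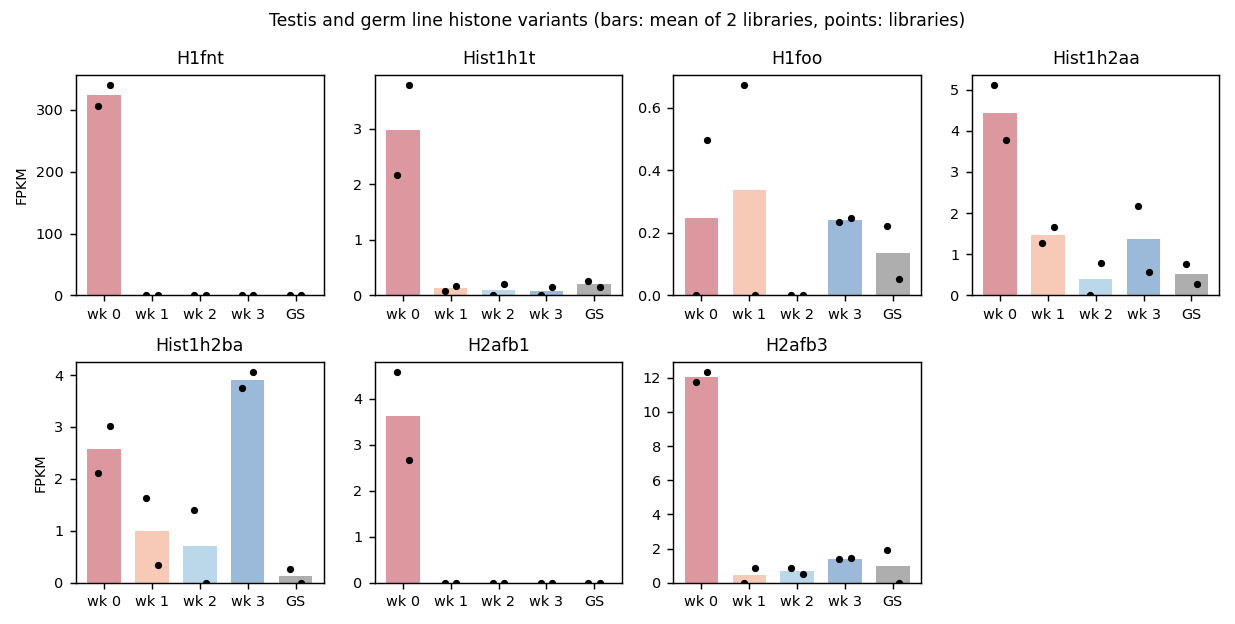
FPKM of the 7 testis and germ line histone variants in each library (points) with the mean of 2 libraries (bars), by group from week 0 to GS cells, each panel on its own linear axis. H1fnt, Hist1h1t, Hist1h2aa, H2afb1 and H2afb3 are highest at week 0 and Hist1h2ba at week 3, and H1foo stays at or below 0.672 FPKM throughout.

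H2afb3 and H2afb1 encode short H2A variants of the H2A.B type, found in spermatids. H2afb3 had 11.8 and 12.3 FPKM in the week 0 libraries, 0 and 0.85 in those of week 1, 0.874 and 0.504 in those of week 2, 1.40 and 1.44 in those of week 3, and 1.93 and 0 in GS cells. H2afb1 was listed at 0 in all 8 later libraries, against 4.58 and 2.68 FPKM at week 0. Both genes thus had their week 0 libraries apart from the rest, and both fell at week 1 (adjusted p = 0.000215 for H2afb3 and 3.90e-06 for H2afb1). Their annotated transcripts are 348 nucleotides long, and 46.8% of the stretches of 50 bases in H2afb3 and 43.8% of those in H2afb1 occur in other genes, so reads could have been divided between them.

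Hist1h1t encodes H1t, the linker histone of meiotic spermatocytes and early spermatids. It had between 0 and 0.267 FPKM in the 8 later libraries, against 2.17 and 3.78 FPKM at week 0, with no overlap. It fell by 1.79 on the log2 scale at week 1 (SE 0.19, limma adjusted p = 3.49e-05). The 5 genes outside the histone set whose log2 levels followed Hist1h1t most closely over the 10 libraries were Pip5kl1 (Pearson's r = 0.994), Depp1, Akr1c19, Ifnb1 and Scgb2b27 (r = 0.990 to 0.992). All of these points share the contrast of 2 week 0 libraries against 8 others.

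Hist1h2aa and Hist1h2ba encode TH2A and TH2B, testis H2A and H2B proteins that replace much of the canonical pair in meiotic germ cells. Hist1h2aa had 5.11 and 3.77 FPKM in the week 0 libraries, 1.27 and 1.66 in those of week 1, 0 and 0.787 in those of week 2, 2.18 and 0.561 in those of week 3, and 0.753 and 0.281 in GS cells. Hist1h2ba had 2.11 and 3.03 FPKM in the week 0 libraries, 1.64 and 0.343 in those of week 1, 1.41 and 0 in those of week 2, 3.76 and 4.05 in those of week 3, and 0.259 and 0 in GS cells. For TH2A week 0 was the highest group, while for TH2B the week 3 libraries lay above all others, including those of week 0. Hist1h2ba shared 38.2% of its stretches of 50 bases with other genes, most of all with Hist1h2bj, and Hist1h2aa 2.35%. Hist1h2bj also had its highest mean at week 3, of 1.29 FPKM. The part of shared reads in the level of Hist1h2ba was not tested. Hist1h2aa fell by 1.14 on the log2 scale at week 1 against week 0 (SE 0.38, limma adjusted p = 0.0221), a call that ended without either week 0 library (adjusted p = 0.153 without replicate 1 and 0.0668 without replicate 2) or either week 1 library (0.095 and 0.0503), and also with a pseudocount of 0.1 (0.191), after quantile normalization (0.375) and with a common sum (0.0644). It fell by 1.85 in GS cells against week 0 (adjusted p = 0.00186, or 0.107 after quantile normalization).

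The week 3 level of Hist1h2ba stood 1.66 above week 2 on the log2 scale (SE 0.43, limma adjusted p = 0.0292), and in GS cells it fell by 2.13 against week 3 (adjusted p = 0.0109). The first call ended without week 2 replicate 2 (adjusted p = 0.138), without either week 3 library (0.0989 and 0.104) and without either week 0 library (0.0753 and 0.0752), and also with a pseudocount of 0.1 (0.0966). The second ended without week 3 replicate 2 (0.0522) or GS replicate 2 (0.0636). Week 1 against week 0 was not called for this gene (-0.91, adjusted p = 0.0805), and GS cells against week 0 was (-1.66, adjusted p = 0.00675, or 0.0721 without week 0 replicate 2 and 0.181 after quantile normalization). Its closest genes over the 10 libraries were Sco2 (r = 0.926), Zfp12 (0.901), Fam124a (0.898), Gm4353 (0.891) and Daam1 (0.886). Sco2 had 20.4 and 21.3 FPKM at week 3, against 12.2 and 10.4 FPKM at week 2.

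TH2A and TH2B lie head to head on chromosome 13, Hist1h2ba on the minus strand at 23933773 to 23934156 and Hist1h2aa on the plus strand at 23934462 to 23934851 (GRCm38). Their promoter windows overlap in part. That of Hist1h2ba runs from 23934107 to 23934406, so the window printed here, that of Hist1h2aa, leaves out the bases next to the start of Hist1h2ba. It is shown because the pair shares much of it while the week 3 values of the genes differ. The sequence is RefSeq's promoter window of GRCm38.p6 for Hist1h2aa, 250 bases before and 50 bases after the start of transcription, with matches to the TATA box TATAAA, to the CCAAT box, to the octamer ATTTGCAT and to the H1 box AAACACA on either strand in capitals.
Hist1h2aa (chr13:23934187-23934486, + strand): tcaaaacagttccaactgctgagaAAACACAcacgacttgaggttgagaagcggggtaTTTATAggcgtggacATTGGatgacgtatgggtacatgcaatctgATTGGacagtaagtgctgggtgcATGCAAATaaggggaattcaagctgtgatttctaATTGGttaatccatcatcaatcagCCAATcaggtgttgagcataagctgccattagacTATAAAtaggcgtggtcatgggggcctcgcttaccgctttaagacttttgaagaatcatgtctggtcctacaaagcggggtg
The window holds a TATAAA 32 bases before the start of Hist1h2aa and another on the opposite strand, 94 bases before the start of Hist1h2ba. TATAAA occurs in 13.6% of all 32851 RefSeq promoter windows of this length, CCAAT in 37.4%, the octamer in 1.74% and the H1 box in 7.18%. Such a match is a description and not evidence of a bound site.

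H1foo, the linker histone of oocytes, had at most 0.672 FPKM in any library and did not enter the tests. Of the 6 testis variants tested, 5 fell at week 1 against week 0 and none rose, where 44.0% of all genes tested fell and 36.3% rose (80.3% in either direction). All 6 were called lower in GS cells against week 0, where 45.9% of all genes fell (80.6% were called in either direction). H1fnt, Hist1h1t and H2afb1 reached FPKM 1 at week 0 alone. They entered the tests through that group and could hardly rise from it, so these counts are descriptive. At week 2 against week 1, H1fnt was called lower (-0.51, limma adjusted p = 0.0421), a difference between 0 and 0 FPKM at week 2 and 0.162 and 0.737 FPKM at week 1. That call ended when any of 9 libraries was left out, week 1 replicate 1 being the exception, with adjusted p between 0.0608 and 0.200, and also with no filter (0.059).

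Genes of sperm chromatin outside the histone names moved alongside. The list holds transition proteins, protamines and other spermatid histones, and also Brdt, Chd5, Rnf8 and Sycp3, the last of which is a spermatocyte marker here too. Of 13 tested, 12 fell at week 1 against week 0, where 44.0% of all genes fell. Their median was -6.38 on the log2 scale against -0.14 over all genes. Hils1, a spermatid H1-like protein, had 0 and 0.189 FPKM at week 1, against 463 and 454 FPKM at week 0. Tnp2, transition protein 2, had 6.45 and 9.25 FPKM at week 1, against 3946 and 4035 FPKM at week 0. The 14 spermatid markers, which share some of these genes, summed to 178 to 191 FPKM in those of week 1, 14.0 to 15.2 in those of week 2, 16.7 to 21.9 in those of week 3 and 15.7 to 15.9 in GS cells, with Acrv1, Prm1, Prm2 and Tnp2 listed at 0 at week 2 and in GS cells. The 10 spermatocyte markers summed to 192 to 243 FPKM at week 1, 218 to 231 at week 2, 294 to 354 at week 3 and 268 to 294 in GS cells. In bulk libraries such as these, fewer cells of a type and less RNA per cell cannot be told apart, and the part of spermatids and spermatocytes in the testis variants' levels was not tested.

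The 10 replication-independent variants were the abundant members. Each reached at least 44.8 FPKM in some library, and none was listed at 0 anywhere. In their order of mean level, H3f3b, H2afz and H3f3a led, followed by H2afv, H2afy, H1fx, H2afj, H2afx, H2afy2 and H1f0. At week 1 against week 0, 4 rose and 6 fell, where 36.3% of all genes rose and 44.0% fell (80.3% in either direction). Their median was -0.56 on the log2 scale against -0.14 over all genes tested. At week 2 against week 1, 5 rose and 1 fell, where 28.2% of all genes rose and 27.4% fell. At week 3 against week 2, 4 rose and 5 fell, where 10.6% of all genes rose and 10.7% fell.

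**Figure D2:**
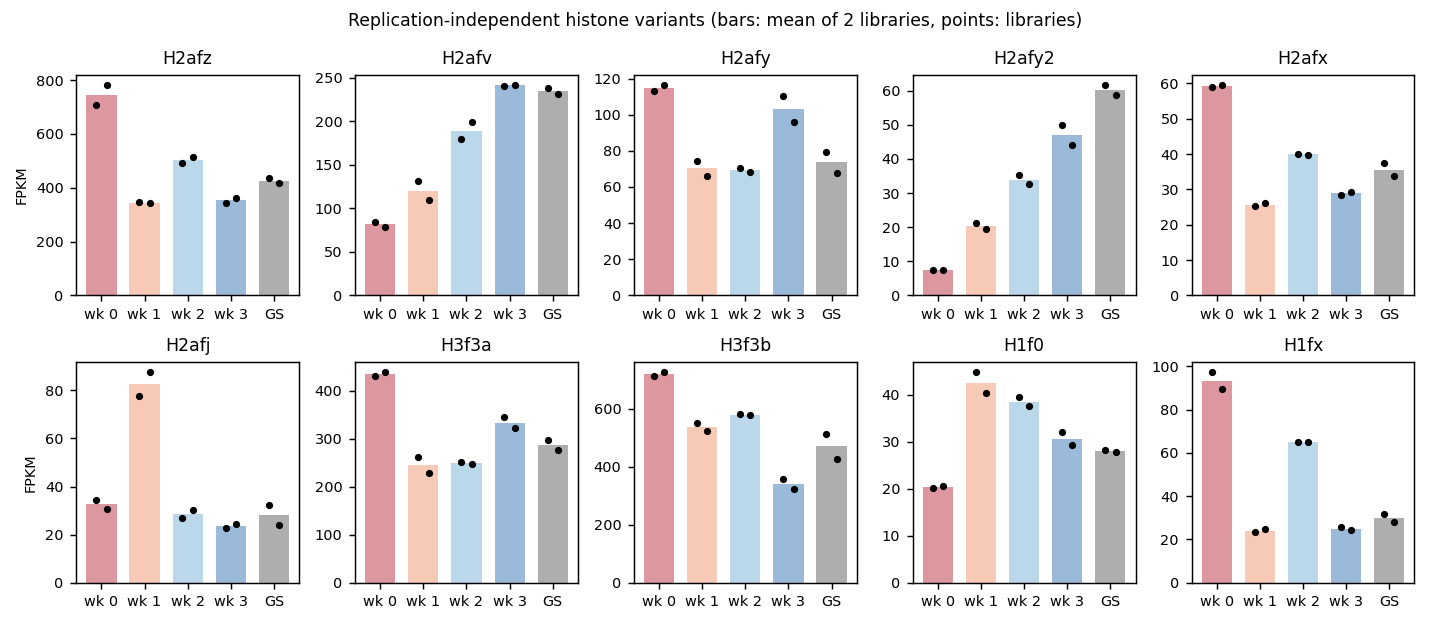
FPKM of the 10 replication-independent variants in each library (points) with the mean of 2 libraries (bars), by group from week 0 to GS cells, each panel on its own linear axis from 0. H2afv and H2afy2 have higher means at each week up to week 3, H2afj stands out at week 1, and H1fx is high at weeks 0 and 2.

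H2A.Z, the variant of promoter-flanking nucleosomes, is made from a pair of genes, H2afz and H2afv. H2afz had 708 and 782 FPKM in the week 0 libraries, 348 and 342 in those of week 1, 491 and 514 in those of week 2, 345 and 361 in those of week 3, and 438 and 416 in GS cells. It was highest at week 0, and the 2 libraries of each group lay apart from those of its neighbours in time. It fell by 1.11 on the log2 scale at week 1 against week 0 (SE 0.07, limma adjusted p = 1.34e-06), rose by 0.54 at week 2 against week 1 (adjusted p = 0.000366) and fell by 0.51 at week 3 against week 2 (adjusted p = 0.0026).

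H2afv, the second H2A.Z gene, had 84.8 and 79.2 FPKM in the week 0 libraries, 131 and 110 in those of week 1, 179 and 199 in those of week 2, 241 and 242 in those of week 3, and 238 and 232 in GS cells. No 2 neighbouring weeks overlapped. It rose by 0.54 at week 1 (SE 0.10, limma adjusted p = 0.000828) and by 0.65 at week 2 (adjusted p = 0.000652), and GS cells were above week 0 by 1.51 (adjusted p = 1.22e-06). The week 3 step over week 2 (0.35, adjusted p = 0.0356) ended without either week 2 library (0.196 and 0.069), either week 3 library (0.118 and 0.113), either week 0 library (0.0616 for each) or either GS library (0.0528 for each), and also with no trend (0.0595). H2afv accounted for 35.2% and 35.8% of the pair's summed FPKM in GS cells, against 10.7% and 9.21% at week 0. H2afz shared 33.2% of its stretches of 50 bases with other genes and H2afv none.

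MacroH2A, a large H2A variant with an added non-histone domain that is associated with silent chromatin, also comes from a pair. H2afy, the gene of macroH2A1, had 113 and 116 FPKM in the week 0 libraries, 74.6 and 66.0 in those of week 1, 70.4 and 68.3 in those of week 2, 111 and 96.1 in those of week 3, and 79.4 and 67.7 in GS cells. H2afy2, the gene of macroH2A2, had 7.49 and 7.49 FPKM in the week 0 libraries, 21.4 and 19.4 in those of week 1, 35.2 and 32.7 in those of week 2, 49.96 and 43.96 in those of week 3, and 61.6 and 58.7 in GS cells. H2afy2 thus had higher values at every stage without overlap, while H2afy was high at weeks 0 and 3. H2afy2 rose by 1.33 at week 1 (SE 0.10, limma adjusted p = 2.79e-06) and by 0.71 at week 2 (adjusted p = 0.000427), and it was 2.85 higher in GS cells than at week 0 (SE 0.10, adjusted p = 2.49e-08).

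The later steps of the macroH2A genes were smaller. H2afy2 was 0.46 higher at week 3 than at week 2 (limma adjusted p = 0.0136), a call that ended without week 2 replicate 2 (0.0926) or week 3 replicate 1 (0.0826). Its GS step over week 3 (0.35, adjusted p = 0.0348) ended without either week 2 library (0.0558 and 0.0555), week 3 replicate 2 (0.172) or either GS library (0.157 and 0.0907), and also after quantile normalization (0.0515) and with a common sum (0.0502). H2afy fell by 0.70 at week 1 (adjusted p = 0.000321, or 0.228 under quantile normalization) and was 0.56 higher at week 3 than at week 2 (adjusted p = 0.00839), that call ending without week 2 replicate 2 (0.0557) or week 3 replicate 1 (0.054). In GS cells it fell by 0.49 against week 3 (adjusted p = 0.0152), which ended without week 3 replicate 1 (0.0848) or GS replicate 2 (0.0821). H2afy2 made up 43.7% and 46.4% of the macroH2A pair in GS cells, against 6.22% and 6.05% at week 0.

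H3.3, the H3 variant placed outside replication by the chaperones HIRA, DAXX and ATRX, is encoded identically by H3f3a and H3f3b. H3f3a had 430.0 and 438 FPKM in the week 0 libraries, 262 and 228 in those of week 1, 252 and 247 in those of week 2, 344 and 322 in those of week 3, and 297 and 276 in GS cells. H3f3b had 713 and 726 FPKM in the week 0 libraries, 551 and 525 in those of week 1, 582 and 579 in those of week 2, 358 and 324 in those of week 3, and 515 and 428 in GS cells. At week 3 the genes moved apart, H3f3a lying above both week 2 libraries and H3f3b below them. H3f3b fell by 0.77 at week 3 against week 2 (SE 0.10, limma adjusted p = 0.0015), and its share of the pair was 51.0% and 50.2% at week 3, against 69.8% and 70.1% at week 2.

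H3f3a was 0.42 higher at week 3 than at week 2 (SE 0.08, limma adjusted p = 0.0103), a call that ended without either week 2 library (0.0538 and 0.0689) or week 3 replicate 1 (0.0605). H3f3b was 0.46 higher in GS cells than at week 3 (adjusted p = 0.0122, or 0.0642 without week 3 replicate 2). At week 1 against week 0 both H3.3 genes fell, H3f3a by 0.82 (adjusted p = 2.19e-05) and H3f3b by 0.42 (adjusted p = 0.00343). The H3f3b call was lost when every library was scaled to a common sum (-0.17, adjusted p = 0.0907).

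**Figure D3:**
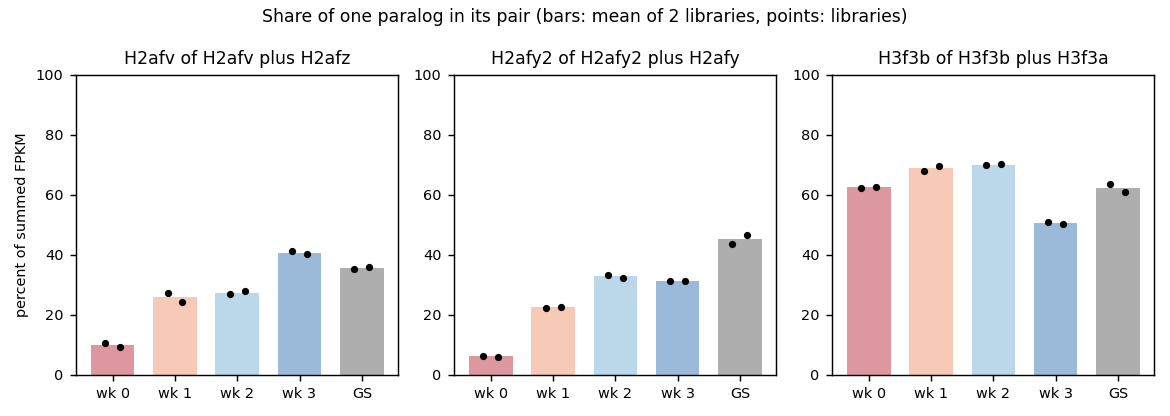
Share of the named gene in the summed FPKM of its pair, in percent, in each library (points) with the mean of 2 libraries (bars), by group from week 0 to GS cells. The H2afv share was 35.2% and 35.8% in GS cells, against 10.7% and 9.21% at week 0, and the H3f3b share was lowest at week 3.

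H2afx encodes H2A.X, which is phosphorylated at DNA breaks and over the sex chromosomes of meiotic cells. It had 58.9 and 59.5 FPKM in the week 0 libraries, 25.2 and 26.2 in those of week 1, 39.99 and 39.79 in those of week 2, 28.4 and 29.3 in those of week 3, and 37.3 and 33.9 in GS cells. The order of the groups was the same as for H2afz, and neighbouring stages did not overlap. H2afx fell by 1.18 at week 1 (SE 0.08, limma adjusted p = 1.49e-06), rose by 0.62 at week 2 (adjusted p = 0.000275) and fell by 0.45 at week 3 (adjusted p = 0.00567).

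H1fx, the gene of linker histone H1.10, had 97.3 and 89.7 FPKM in the week 0 libraries, 23.4 and 24.7 in those of week 1, 65.2 and 65.3 in those of week 2, 25.9 and 24.2 in those of week 3, and 31.7 and 28.2 in GS cells. Weeks 0 and 2 were high and weeks 1 and 3 low, with each pair of libraries close together. The 3 steps were -1.92, 1.41 and -1.35 on the log2 scale (SE 0.09 each), with limma adjusted p of 1.5e-07, 7.17e-06 and 0.000103. All 3 calls were kept under each of the 19 alternatives. None of its stretches of 50 bases occurred in another gene.

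H1f0, the gene of linker histone H1.0, which accumulates in differentiated and resting cells, had 20.3 and 20.6 FPKM in the week 0 libraries, 44.8 and 40.5 in those of week 1, 39.5 and 37.7 in those of week 2, 32.0 and 29.3 in those of week 3, and 28.3 and 27.9 in GS cells. It was highest at week 1, and its mean was lower at each stage after that. It rose by 1.02 at week 1 (SE 0.09, limma adjusted p = 7.25e-06). The change of -0.32 at week 3 against week 2 (adjusted p = 0.032) ended without either week 2 library (0.163 and 0.101) or either week 3 library (0.0581 and 0.146).

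H2afj, the gene of H2A.J, a variant known to accumulate in senescent human fibroblasts, had 34.6 and 30.6 FPKM in the week 0 libraries, 77.5 and 87.4 in those of week 1, 27.0 and 30.1 in those of week 2, 22.6 and 24.5 in those of week 3, and 32.2 and 24.0 in GS cells. The week 1 libraries lay far above the other 8. H2afj rose by 1.31 at week 1 (SE 0.14, limma adjusted p = 4.26e-05) and fell by 1.50 at week 2 (adjusted p = 6.97e-05). The 11 fibroblast and matrix markers summed to 657 to 801 FPKM at week 0, 7310 to 7366 at week 1 and 722 to 761 at week 2. All 11 rose at week 1 and all 11 fell at week 2, and their part in the level of H2afj was not tested. The labels do not say whether feeder cells were present in the cultures.

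Against week 3, GS cells had 4 variants called higher and 1 lower, where 11.7% of all genes rose and 10.8% fell. Beside H2afy2 and H3f3b these were H2afz (0.27, limma adjusted p = 0.0299) and H2afx (0.29, adjusted p = 0.0309). The H2afz call ended without either week 2 library (0.0535 for each), either week 3 library (0.124 and 0.0621) or either GS library (0.125 and 0.0588), after quantile normalization (0.397) and with no trend (0.0648). The H2afx call ended without either week 2 library (0.0589 for each), either week 3 library (0.123 and 0.0827) or GS replicate 1 (0.164). Against week 0, 3 variants rose in GS cells (H2afy2, H2afv and H1f0) and 6 fell, where 34.7% of all genes rose and 45.9% fell. Of the 6 that fell, H2afz (-0.80), H2afx (-0.72) and H1fx (-1.61) kept that call under every alternative. H3f3a, H3f3b and H2afy did not, with adjusted p of 0.171, 0.174 and 0.163 when libraries were scaled to a common sum. After quantile normalization the values were 0.46 for H3f3a and 0.325 for H2afy.

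The 61 replication-dependent genes were measured at low levels. Of these, 26 stayed under 1 FPKM in every library, 30 reached between 1 and 10 FPKM, and 5 reached 10 FPKM or more. Their summed level was 108 and 95.9 FPKM in the week 0 libraries, 191 and 166 in those of week 1, 58.9 and 53.4 in those of week 2, 48.0 and 52.3 in those of week 3, and 65.3 and 57.5 in GS cells. Week 1 was the highest group by this sum and did not overlap with the others. Hist1h2bc, Hist1h1c and Hist1h4i made up most of it, with week 1 means of 64.6, 44.4 and 17.2 FPKM. Without these genes the sum would be lower at week 1 than at week 0, where Hist1h2bp led with a mean of 46.8 FPKM. Because 44 of the 61 were listed at 0 in some library, and because a short transcript at FPKM 1 rests on few reads, most single members carry little information. Of the 35 that did not enter the tests, 11 had their highest mean at week 1, 10 at week 3, 5 each at weeks 0 and 2, and 4 in GS cells.

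**Figure D4:**
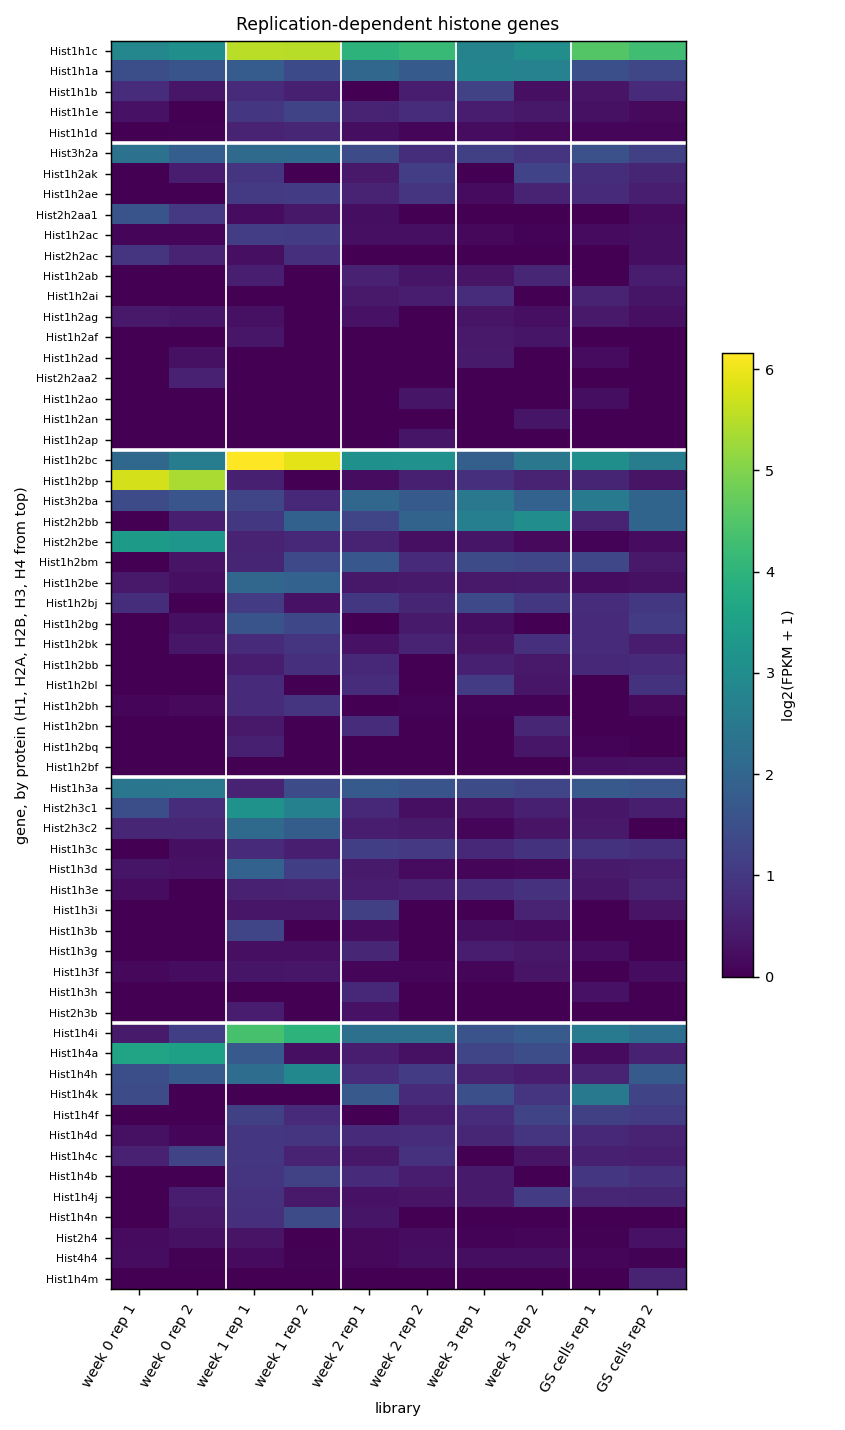
Level of the 61 replication-dependent genes, log2(FPKM + 1), in each of the 10 libraries, grouped by protein from H1 at the top to H4 at the bottom and ordered by mean level within a protein. Hist1h1c, Hist1h2bc and Hist1h4i are brightest at week 1, Hist1h2bp, Hist1h4a and Hist2h2be at week 0, and most other rows stay dark.

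Many of these genes cannot be separated well by short reads. The median replication-dependent gene shared 49.7% of its stretches of 50 bases with other genes, against 4.19% for the replication-independent variants and 2.35% for the testis variants. In 30 of the 61 the share reached 50%, and in 3 (Hist1h1a, Hist1h1b and Hist2h2be) it was 0. Levels of the near-identical copies are therefore uncertain. Of the 6 genes with the highest mean level, Hist1h2bp shared 45.3%, Hist1h4a 40.4%, Hist1h2bc 30.1%, Hist1h4i 28.9%, Hist1h1c 8.54% and Hist1h1a 0%.

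The 3' ends of the messages bear on a poly(A) library, so the annotated 3' UTRs were searched for the histone hairpin of 16 bases, a 6-base stem that begins with GG, a loop of 4 bases that begins with TT, and the reverse complement of the stem. It was present in 43 of the 61 replication-dependent genes, in 1 of 10 replication-independent variants (H2afx) and in 1 of 7 testis variants (Hist1h1t). Across 21901 protein-coding genes of GENCODE M21, 94 (0.429%) had it, 45 of them members. Sites of 5 members are shown: the 3 genes with a hairpin among the 6 replication-dependent genes of highest mean level, and the single variant and testis gene that have it. Hist2h3c1, Hist1h2bg, Hist3h2ba and Hist1h4f also carry one. The sites are read 5' to 3' from GRCm38 with the hairpin in capitals.
Hist1h1c (chr13:23739507-23739532, + strand): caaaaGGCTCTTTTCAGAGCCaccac
Hist1h2bp (chr13:21787918-21787943, + strand): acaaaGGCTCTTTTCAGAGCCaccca
Hist1h4i (chr13:22040961-22040986, - strand): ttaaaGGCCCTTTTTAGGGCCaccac
Hist1h1t (chr13:23696520-23696545, + strand): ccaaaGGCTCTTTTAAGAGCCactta
H2afx (chr9:44335235-44335260, + strand): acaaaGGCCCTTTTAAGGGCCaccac
In Hist1h1c, Hist1h4i, Hist1h1t and H2afx the annotated transcript runs on for 840, 330, 185 and 822 nucleotides past the site. It has AATAAA or ATTAAA in its last 40 nucleotides. In Hist1h2bp the hairpin isoform ends 38 nucleotides past the site, and a second isoform ends at a poly(A) signal without it.

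Levels were also set beside the length of the annotated 3' UTR. Of 29 replication-dependent genes with at least 100 nucleotides of it, 20 reached 1 FPKM and 5 reached 10 FPKM, with a median highest level of 1.41 FPKM. Of the 22 with a shorter one, 9 reached 1 FPKM and none reached 10, with a median of 0.864 FPKM. Of the 10 with none annotated, 6 reached 1 FPKM and none reached 10, and their median of 1.19 FPKM lay above that of the genes with a short one. All 10 replication-independent variants had at least 100 nucleotides. The testis variants did not follow length, since the 4 with no annotated 3' UTR reached 4.05 to 12.3 FPKM and H1fnt, with 84 nucleotides, reached 340 FPKM, while H1foo, with 336 nucleotides, stayed at or below 0.672 FPKM. This is a description over genes that share sequence, and it was not tested.

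At week 1 against week 0, 14 of the 26 replication-dependent genes tested rose and 5 fell, with a median of 0.88 on the log2 scale against -0.14 over all genes, of which 36.3% rose and 44.0% fell. By protein the calls were 1 higher and 0 lower of 2 H1 genes, 2 and 1 of 5 H2A genes, 4 and 2 of 9 H2B genes, 4 and 1 of 5 H3 genes, and 3 and 1 of 5 H4 genes. At week 2 against week 1, 12 fell and 3 rose, with a median of -0.46 against 0.03 over all genes, of which 28.2% rose and 27.4% fell. At week 3 against week 2, 2 rose and 2 fell (all genes 10.6% and 10.7%). Against week 3, 2 rose and 1 fell in GS cells (all genes 11.7% and 10.8%). Against week 0, 7 rose and 8 fell in GS cells (all genes 34.7% and 45.9%), so in these last 3 comparisons the calls were near or below the share over all genes. A member at 0 in a group enters these medians through the pseudocount of 1. Hist1h2ac, Hist1h2ae, Hist1h2be, Hist1h3d and Hist2h3c2 reached FPKM 1 at week 1 alone. Hist2h2aa1, Hist2h2be and Hist1h2bp did so at week 0 alone. For these genes the filter itself favoured a direction, so the counts and medians that involve week 0 or week 1 are descriptive.

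**Figure D5:**
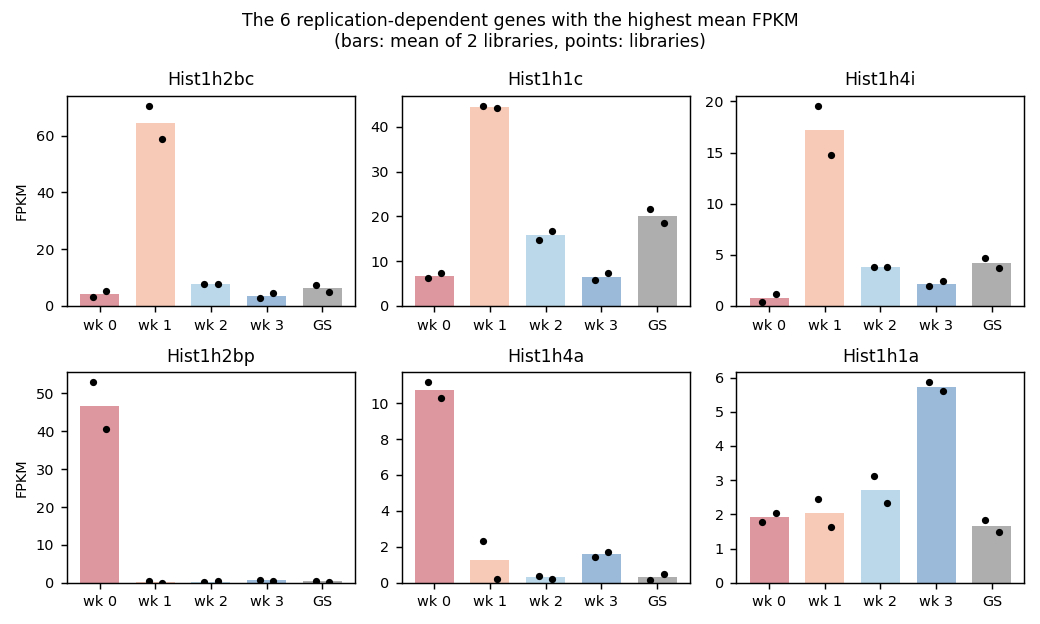
FPKM of the 6 replication-dependent genes with the highest mean level in each library (points) with the mean of 2 libraries (bars), by group from week 0 to GS cells, each panel on its own linear axis from 0. The top row peaks at week 1, Hist1h2bp and Hist1h4a at week 0, and Hist1h1a at week 3.

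Hist1h2bc, an H2B gene with an annotated 3' UTR of 742 nucleotides and no hairpin in it, had 3.14 and 5.14 FPKM in the week 0 libraries, 70.6 and 58.6 in those of week 1, 7.57 and 7.63 in those of week 2, 2.66 and 4.44 in those of week 3, and 7.40 and 5.06 in GS cells. The week 1 libraries stood above the other 8. It rose by 3.70 at week 1 (SE 0.26, limma adjusted p = 2.37e-06) and fell by 2.93 at week 2 (adjusted p = 4.56e-05). A further step of -0.95 at week 3 (adjusted p = 0.037) ended without either week 0 library (0.0536 and 0.0538), either week 2 library (0.129 and 0.133) or week 3 replicate 1 (0.186), with no filter (0.0558), and with the replicate number as a block (0.0523).

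Hist1h1c encodes linker histone H1.2, a common somatic subtype. It had 6.18 and 7.33 FPKM in the week 0 libraries, 44.7 and 44.1 in those of week 1, 14.8 and 16.6 in those of week 2, 5.77 and 7.25 in those of week 3, and 21.7 and 18.4 in GS cells. Weeks 0 and 3 overlapped and all other groups were apart. It rose by 2.55 at week 1 (SE 0.14, limma adjusted p = 5.03e-07), fell by 1.44 at week 2 (adjusted p = 7.51e-05), fell by 1.16 at week 3 (adjusted p = 0.00138) and was 1.49 higher in GS cells than at week 3 (adjusted p = 0.000489). These 4 calls, and the 1.44 by which GS cells exceeded week 0, were kept under all 19 alternatives. Hist1h1c shared 8.54% of its stretches of 50 bases with other genes.

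The promoter of Hist1h1c is shown because the gene changed in each comparison, with its match to the H1 box (AAACACA) and to CCAAT in capitals. It is the same kind of RefSeq window of 300 bases as above.
Hist1h1c (chr13:23738557-23738856, + strand): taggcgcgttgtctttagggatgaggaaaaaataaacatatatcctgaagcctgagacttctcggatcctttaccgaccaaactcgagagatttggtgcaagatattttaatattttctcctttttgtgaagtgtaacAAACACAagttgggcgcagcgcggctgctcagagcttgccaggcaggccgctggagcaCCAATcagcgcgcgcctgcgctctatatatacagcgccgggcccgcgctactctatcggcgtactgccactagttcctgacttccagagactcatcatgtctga
Over the 72 members matched to a RefSeq promoter, CCAAT was found in 47 of 56 replication-dependent windows, among them all windows of H1 (5), H2A (15), H2B (14) and H3 (10) genes and 3 of 12 of H4 genes. The H1 box was found in 4 of 5 H1 windows, the octamer ATTTGCAT in 6 of 14 H2B and 5 of 15 H2A windows, and TATAAA in 31 of 56. TGACGTCA, the cyclic AMP response element, was in 4 of 56, where 1.79% of all promoter windows have it.

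Hist1h4i, an H4 gene whose transcript runs on past its hairpin, had 0.367 and 1.20 FPKM in the week 0 libraries, 19.6 and 14.8 in those of week 1, 3.80 and 3.82 in those of week 2, 1.96 and 2.42 in those of week 3, and 4.69 and 3.74 in GS cells. Week 0 was lowest and week 1 highest, with no overlap between them and any other group. It rose by 3.38 at week 1 (SE 0.24, limma adjusted p = 2.35e-06), fell by 1.91 at week 2 (adjusted p = 0.000272) and was 1.58 higher in GS cells than at week 0 (adjusted p = 0.000302). Hist2h3c1, an H3 gene, had 1.79 and 0.733 FPKM at week 0, 7.93 and 5.53 at week 1 and 0.638 and 0.184 at week 2, where it fell by 2.46 against week 1 (adjusted p = 0.000112). All of its stretches of 50 bases (100%) occur in other genes, so its level is that of a group of copies. The fibroblast and matrix markers that peaked at week 1 moved with these genes too, and their part was not tested.

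Hist1h2bp, an H2B gene, ran the other way. It had between 0 and 0.77 FPKM in the 8 later libraries, against 52.9 and 40.7 FPKM at week 0. It fell by 5.30 at week 1 (SE 0.23, limma adjusted p = 1.06e-07) and in GS cells it fell by 5.08 against week 0 (adjusted p = 1.40e-07). Hist1h4a, an H4 gene, had 11.2 and 10.3 FPKM in the week 0 libraries, 2.31 and 0.186 in those of week 1, 0.382 and 0.22 in those of week 2, 1.42 and 1.72 in those of week 3, and 0.14 and 0.472 in GS cells. It fell by 2.56 at week 1 (SE 0.40, adjusted p = 0.000369), and in GS cells it fell by 3.18 against week 0 (adjusted p = 9.31e-05). Hist2h2be, an H2B gene picked out after its values were seen, had between 0.04 and 0.65 FPKM in the 8 later libraries, against 9.30 and 8.40 FPKM at week 0. These 3 genes had their high libraries at week 0, where the markers of spermatids, spermatocytes, Leydig cells and Sertoli cells were all highest. The part of these cell types in their levels was not tested.

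The promoter window of Hist1h2bp is shown as that of the replication-dependent gene with the steepest drop, with TATAAA and CCAAT on either strand in capitals.
Hist1h2bp (chr13:21787238-21787537, + strand): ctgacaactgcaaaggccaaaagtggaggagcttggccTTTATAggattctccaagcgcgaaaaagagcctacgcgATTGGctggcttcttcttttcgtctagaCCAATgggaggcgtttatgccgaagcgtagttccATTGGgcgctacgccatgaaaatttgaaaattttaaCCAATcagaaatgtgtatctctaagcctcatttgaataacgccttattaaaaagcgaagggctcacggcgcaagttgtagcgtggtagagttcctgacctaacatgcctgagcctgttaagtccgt
It has 4 matches to CCAAT in all, counting both strands, and no match to the octamer or to the H1 box within these letters.

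Hist1h1a, which encodes linker histone H1.1, a subtype found in few tissues and present in testis, had 1.79 and 2.05 FPKM in the week 0 libraries, 2.44 and 1.63 in those of week 1, 3.11 and 2.34 in those of week 2, 5.86 and 5.59 in those of week 3, and 1.85 and 1.48 in GS cells. The week 3 libraries lay above the other 8. In GS cells it fell by 1.34 on the log2 scale against week 3 (SE 0.17, limma adjusted p = 0.00168), a call kept under all 19 alternatives. The step of 0.86 at week 3 over week 2 (adjusted p = 0.0102) ended without week 2 replicate 2 (0.0718) or week 3 replicate 1 (0.0553). None of its stretches of 50 bases occurred in another gene.

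The remaining members named by the rule were low. Hist1h2bg had 2.01 and 1.51 FPKM at week 1, against 0 and 0.19 FPKM at week 0 (1.33, limma adjusted p = 0.000232). It was 0.82 higher in GS cells than at week 3 (adjusted p = 0.0198), which ended without either week 3 library (0.051 and 0.103) or GS replicate 2 (0.111), and with a pseudocount of 0.1 (0.0589). Hist3h2ba had 3.13 and 2.34 FPKM at week 2, against 1.45 and 0.608 FPKM at week 1 (0.90, adjusted p = 0.0251), which ended without either week 0 library (0.0589 and 0.0588), week 1 replicate 2 (0.147) or week 2 replicate 1 (0.126). Hist1h4f was listed at 0 in both week 0 libraries and had between 0 and 1.39 FPKM in the others. Its call at week 3 against week 2 (adjusted p = 0.037) ended without any week 0 or GS library (0.0576 to 0.0853), week 2 replicate 1 (0.200) or week 3 replicate 2 (0.181), and with a pseudocount of 0.1 (0.0505), no filter (0.0529) or the replicate block (0.0513).

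Over all 42 tested members, 18 rose and 16 fell at week 1 against week 0, where 36.3% of all genes rose and 44.0% fell. At week 2 against week 1, 8 rose and 14 fell, where 28.2% of all genes rose and 27.4% fell. At week 3 against week 2, 7 rose and 7 fell, where the shares were 10.6% and 10.7%. Fewer members than these 7 rose when any library of weeks 0, 2 or 3 was left out, and fewer of all genes rose in those fits too. Against week 3, 6 rose and 3 fell in GS cells, where the shares were 11.7% and 10.8%. Fewer members than these 6 rose when any library of weeks 2 or 3 or of GS cells was left out, and again fewer of all genes did. Without week 2 replicate 1, fewer members than the 8 rose at week 2 against week 1, and fewer of all genes did.

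In GS cells against week 0, 10 members rose and 20 fell, with a median of -0.33 on the log2 scale against -0.21 over all genes, of which 34.7% rose and 45.9% fell. The balance depended on the scaling. After quantile normalization 19 rose and 11 fell, where 8039 and 5128 of all 15671 genes did. This moved the median of all genes to 0.45. With libraries scaled to a common sum 12 rose and 13 fell, where 7015 and 5951 of all genes did, with their median at 0.17. At week 2 against week 1 the split was 12 and 13 after quantile normalization, against 5785 and 3577 over all genes (median 0.17, against 0.03). In GS cells against week 3 it was 5 and 4, against 1731 and 1673 over all genes. At week 1 against week 0, 21 rose and 13 fell after quantile normalization, where 7772 and 5223 of all genes did. The median of all genes was then 0.38 against -0.14.

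Factors that make and load histones were followed in the same comparisons. Of 17 genes of histone transcription and 3' processing, 7 rose and 7 fell at week 1 against week 0, near the 36.3% and 44.0% of all genes. Week 2 against week 1 had 10 higher and 1 lower, where 28.2% of all genes rose and 27.4% fell. Slbp, whose product binds the hairpin, had 209 and 211 FPKM at week 2, against 126 and 124 FPKM at week 1 (0.74, limma adjusted p = 3.78e-05). E2f1, a transcription factor of S phase genes, was 1.47 higher at week 1 than at week 0 (adjusted p = 1.52e-06), and Sympk, a scaffold of the cleavage complex, fell by 1.94 (adjusted p = 1.46e-06). Of 28 histone chaperones and deposition factors, 9 rose and 10 fell at week 1, again near the shares over all genes, and 22 rose and 2 fell at week 2. Hjurp, the chaperone of centromeric H3, had 159 and 163 FPKM at week 2, against 51.1 and 61.8 FPKM at week 1 (1.50, adjusted p = 2.68e-05). In GS cells against week 0, 18 chaperones rose and 7 fell, where 34.7% of all genes rose and 45.9% fell. Among those that rose were Chaf1b of the replication-coupled assembly factor CAF-1 (2.51, adjusted p = 3.34e-07) and Hat1, which acetylates new H4 (2.47, adjusted p = 2.42e-08).

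Genes of DNA replication were measured beside the histone genes. Of 31, 20 rose and 5 fell at week 1 against week 0, where 36.3% of all genes rose and 44.0% fell. Week 2 against week 1 had 28 higher and none lower, where 28.2% of all genes rose and 27.4% fell, and at week 3 against week 2 none rose and 10 fell, where 10.6% rose and 10.7% fell. Their summed level was 948 to 983 FPKM in the week 0 libraries, 1430 to 1436 in those of week 1, 2558 to 2585 in those of week 2, 2035 to 2063 in those of week 3 and 2194 to 2215 in GS cells. The group with the highest sum was week 2. The sum over all 61 replication-dependent histone genes was highest at week 1, mostly through Hist1h2bc, Hist1h1c and Hist1h4i. Mcm2, a subunit of the replicative helicase, had 295 and 331 FPKM at week 2, against 95.1 and 121 FPKM at week 1 (1.54, limma adjusted p = 0.000119). Tyms, thymidylate synthase, was 2.29 higher at week 1 than at week 0 (adjusted p = 1.91e-07). Hairpin-ended mRNAs without a poly(A) tail were not analysed here.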

How the data were processed

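The deposited table holds normalized FPKM of 21969 genes, 1 column for each of 10 libraries. Libraries were made with the TruSeq Stranded mRNA kit, which selects poly(A) RNA, per the labels' protocols. Tools listed in the submitters' processing notes are Cufflinks 2.2.1 with Cuffdiff, the aligners HISAT2 2.1.0 and Bowtie2 2.3.4.1, the trimmer cutadapt 1.16 and bcl2fastq 2.17.1.14, on build mm10. No source used here gives the annotation release, the handling of reads that map to several copies, or the method of normalization. FPKM divides by transcript length, so few reads stand behind a short histone mRNA.

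The 15671 genes that reached FPKM 1 in 2 or more libraries were fitted as log2(FPKM + 1) with limma 3.58.1 in R 4.3.3, in 1 linear model over the 5 groups with an intensity trend and 5 residual degrees of freedom. The pseudocount makes the fold changes of low genes too small. Tests were two-sided, with Benjamini-Hochberg adjustment over all genes tested. The code was tested on simulated data. Depth was estimated from genes with a lone transcript of at least 1500 nucleotides, taking a fragment of 200 nucleotides, and 97.0% to 99.7% of low values were whole reads within 0.15 of a read. The depth was chosen to make this percentage high, so the percentage is no separate check of it. Reads were not recovered for all genes, since transcript lengths depend on an unnamed annotation, and no count model was run.

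All 78 member identifiers were found in GENCODE M21 (GRCm38), the source of coordinates, 3' UTRs and shared stretches of 50 bases. Promoter windows came from RefSeq. Named genes were all testis and replication-independent variants, the 6 replication-dependent genes of highest mean FPKM, and in each comparison the 3 largest rises and 3 largest falls among members called. The same rule named up to 3 genes of the histone transcription, chaperone, sperm chromatin and DNA replication lists per comparison, of which examples are given, with Slbp added after its values were seen. Members, lists and tests were chosen with earlier results of these data known. A set of 19 alternatives was run: pseudocounts of 0.1 and 0.5, no filter, a filter at FPKM 5, quantile normalization, a common sum per library, a fit of the 2 groups compared, a replicate block, no trend, and each of the 10 libraries left out.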

Additional observations from a re-analysis of the deposited data

How the results depend on the processing

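Among the 27 named members, 83 calls were made, and 53 of them were made in the same direction under all alternatives that could test the gene. A single value changed sign, Hist2h3c1 in GS cells against week 0, which was 0.25 after quantile normalization against -0.70 without it. With a filter at FPKM 5, 21 members and 12973 genes entered, in place of 42 and 15671. Of these 21, 9 rose at week 1 against week 0, where 4944 of all genes did. At week 2 against week 1, 5 rose and 6 fell, where 4145 and 3604 of all genes did. In GS cells against week 0, 5 rose and 12 fell, where 4906 and 5910 of all genes did. When a fit held the 2 groups compared alone, 5 rose at week 2, 3 rose at week 3 and 2 rose in GS cells against week 3. In that fit 16 of the 83 calls on named members were lost (limma adjusted p 0.0605 to 0.162), which the gene paragraphs above leave out. At week 2 these were H1fnt, Hist1h4f and Hist3h2ba. At week 3 they were H1f0, H2afv, H2afy2, Hist1h1a, Hist1h2ba, Hist1h2bc and Hist1h4f. In GS cells against week 3 they were H2afx, H2afy, H2afy2, H2afz, H3f3b and Hist1h2bg. In GS cells against week 0, quantile normalization gave 19 higher and 11 lower, where 8039 and 5128 of all 15671 genes were. A common sum gave 13 lower, where 5951 of all genes were. Leaving out 1 library at a time gave 16 to 19 higher and 15 to 17 lower at week 1 against week 0, 5 to 7 and 12 to 14 at week 2 against week 1, 1 to 8 and 5 to 7 at week 3 against week 2, 1 to 7 and 2 to 4 in GS cells against week 3, and 9 to 12 and 16 to 20 in GS cells against week 0. Counts over all genes also changed in these fits, each of which leaves 1 library in 1 group. Libraries of the same replicate number showed no shared deviation across genes, with correlations of their deviations from the group means of -0.05 to 0.05. Such correlations cannot tell whether these libraries share mice, dishes or preparation days. With the replicate number as a block, 81 of the 83 calls were kept, and Hist1h2bc (adjusted p = 0.0523) and Hist1h4f (0.0513) at week 3 against week 2 were not. Depth limits the short, low members, where FPKM 1 stands for 2.59 to 5.11 reads at 450 nucleotides.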
